A study of Mus musculus with 6 samples.

Results

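The chromatin at 10 genes of bone morphogenetic protein (BMP) signalling was examined in mouse nephron progenitor cells: the ligands Bmp2, Bmp4 and Bmp7, the receptors Bmpr1a, Bmpr1b and Bmpr2, and the signal transducers Smad1, Smad4, Smad6 and Smad7. A region of accessible DNA was taken for a gene when its midpoint lay in the gene body or within 50 kb of it, which gave 48 of the 43523 distinct regions measured. Accessibility was measured by ATAC-seq, in which Tn5 transposase inserts into open chromatin and the count of a region grows with its openness. The cells came from CD1 mice, an outbred stock, with 3 libraries from embryos at E14.5 and 3 from pups on the day of birth (P0). Each library held 50000 cells selected with antibody against the surface integrin Itga8 from the pooled kidneys of 1 litter. The question put to the data was whether these loci differed in accessibility between the embryonic and the newborn progenitor.

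BMP ligands are secreted dimers that bind a complex of type I receptors (Bmpr1a and Bmpr1b) and type II receptors (Bmpr2). The active type I receptor phosphorylates Smad1 and its close relatives, which join the shared partner Smad4 and move into the nucleus, while Smad6 and Smad7 are induced as inhibitors that close the loop. In the developing kidney Bmp7, made by the progenitors and by the ureteric bud, is known to be needed for progenitor survival and for their priming to differentiate, and Bmp4 from the surrounding mesenchyme patterns the branching ureteric epithelium.

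Sequences just ahead of gene starts were taken from the RefSeq promoter table (GRCm38.p6), which matched 6 of the 10 genes with 8 windows. The genes Bmp2, Bmp7, Smad4 and Smad7 were not matched. Each window printed here is the 250 bases before the start, 5′ to 3′ on the strand of the gene, with capitals marking GC-rich Smad1/5 sites of BMP response elements. The sites searched are GGCGCC on both strands. They also include GGAGCC on both strands, so that capitals can show its reverse complement. They are shown because the proximal Bmpr1b start had the lowest p of the 48 regions, with the other receptors, an inhibitory Smad and the ligand without a region at its start set beside it.
Bmpr1b proximal start, chr3:141931421-141931670, minus strand: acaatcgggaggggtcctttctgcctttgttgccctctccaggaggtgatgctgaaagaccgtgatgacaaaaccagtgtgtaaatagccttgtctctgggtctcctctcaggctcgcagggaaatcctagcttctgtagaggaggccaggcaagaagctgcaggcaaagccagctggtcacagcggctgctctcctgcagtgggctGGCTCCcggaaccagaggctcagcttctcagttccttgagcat
Bmpr1b middle start, chr3:141982265-141982514, minus strand: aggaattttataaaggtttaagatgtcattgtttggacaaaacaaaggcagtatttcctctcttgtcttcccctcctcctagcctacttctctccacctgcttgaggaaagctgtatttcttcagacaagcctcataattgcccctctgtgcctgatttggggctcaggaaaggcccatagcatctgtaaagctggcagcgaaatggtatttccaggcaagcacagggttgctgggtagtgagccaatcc
Bmpr1a, chr14:34502547-34502796, minus strand: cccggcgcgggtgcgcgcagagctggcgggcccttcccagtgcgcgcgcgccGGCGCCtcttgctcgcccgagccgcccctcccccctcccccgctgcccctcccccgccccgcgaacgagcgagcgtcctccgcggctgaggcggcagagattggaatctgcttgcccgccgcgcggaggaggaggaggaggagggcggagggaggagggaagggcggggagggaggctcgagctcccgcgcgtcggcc
Bmpr2, chr1:59764029-59764278, plus strand: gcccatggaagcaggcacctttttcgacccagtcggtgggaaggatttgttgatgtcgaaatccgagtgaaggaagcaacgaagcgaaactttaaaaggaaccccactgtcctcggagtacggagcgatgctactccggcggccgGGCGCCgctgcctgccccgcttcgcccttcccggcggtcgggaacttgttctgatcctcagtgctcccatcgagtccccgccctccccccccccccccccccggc
Smad6, chr9:64022060-64022309, minus strand: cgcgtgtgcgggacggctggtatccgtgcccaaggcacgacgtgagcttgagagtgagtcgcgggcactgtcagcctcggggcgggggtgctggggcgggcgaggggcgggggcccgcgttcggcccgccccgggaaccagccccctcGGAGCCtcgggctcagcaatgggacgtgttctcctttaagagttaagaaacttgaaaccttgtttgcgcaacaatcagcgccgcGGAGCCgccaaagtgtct
Bmp4, chr14:46390670-46390919, minus strand: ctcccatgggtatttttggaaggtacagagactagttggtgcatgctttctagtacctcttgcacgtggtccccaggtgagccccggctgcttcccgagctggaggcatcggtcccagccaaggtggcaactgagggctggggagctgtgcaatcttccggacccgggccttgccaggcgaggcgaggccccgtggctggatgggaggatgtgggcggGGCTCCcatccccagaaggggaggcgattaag

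The GC content was 78.8% in the Bmpr1a window, 64.0% in that of Bmpr2 and 66.8% in that of Smad6. At Bmpr1b it was 56.4% ahead of the proximal start and 46.8% ahead of the middle start, against a median of 52.4% over all promoters of the table. GGCGCC was found in the windows of Bmpr1a and Bmpr2, and it was present in 9.59% of all 32851 promoter windows, on either strand. GGAGCC was found in those of Bmp4, Smad6 (2 matches) and both overlapping windows of the proximal Bmpr1b start, of which 1 is printed, and in 26.0% of all windows. The palindromic Smad box GTCTAGAC was in none of the 8 windows and in 0.167% of all. These are matches of letters and were not tested as binding sites.

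The lowest total count in regions was 6492996 (P0 replicate 2) and the highest 12292629 (P0 replicate 3), and the members' regions held from 26 to 739 counts in a library. Among the 14097 regions classed as promoters, P0 replicate 2 was the lowest of the 6 libraries in 49.4%. P0 replicate 3 was the highest in 27.1%, E14.5 replicate 3 in 23.4% and E14.5 replicate 1 in 22.3%. At the 11 members' start regions P0 replicate 2 was the lowest in 7 and P0 replicate 3 the highest in 7. Markers of the kidney's cell types, 58 genes in 6 lists, had a region at a known start in 22 cases, and 0 of these 22 passed an adjusted p of 0.05 between the stages in edgeR, where 0.851% of all promoter regions did, so that a count of 0 is near the background. The progenitor genes Six2, Cited1, Osr1, Itga8, Gdnf, Sall1 and Wt1 were among them, and so were the stromal genes Foxd1, Tbx18, Dcn and Fibin, the ureteric genes Ret, Wnt11, Gata3 and Calb1 and the endothelial genes Kdr and Flt1. The progenitor genes summed to between 209 and 219 CPM (counts scaled to the TMM-adjusted library size) in the E14.5 libraries and 184 to 240 in those of P0. Stromal genes (4 of 8 known starts) summed to 127 to 165 and 136 to 155, ureteric genes (4 of 9) to 129 to 151 and 111 to 139, and endothelial genes (2 of 6) to 46.5 to 53.2 and 43.4 to 54.5. Genes of the differentiating nephron (5 of 8) summed to 196 to 202 and 173 to 247. The progenitor genes Pax2 and Traf1 had a known start and no region over it, and of the immune markers 0 of 4 known starts had one. Open chromatin at a start does not show that a gene is expressed. In each library the values are means over pooled cells, so that fewer cells with an open region and a less open region in each cell cannot be told apart.

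None of the 48 regions passed the threshold between the stages (edgeR quasi-likelihood test, Benjamini-Hochberg adjusted p under 0.05 over all regions), against 4.73% of all regions tested. DESeq2 and limma-voom also called 0 of the 48, against 6.38% and 4.38% of all regions. At an unadjusted p under 0.05 edgeR gave 4 of the 48, all higher at P0, DESeq2 gave 2 and limma-voom 4. The edgeR count moved to 1 when P0 replicate 1 was left out, to 2 when E14.5 replicate 3 was and to 7 when P0 replicate 3 was. Of all regions edgeR gave 18.7% at that level, 9.85% higher and 8.85% lower, and of the 43523 regions DESeq2 gave 7725 and limma-voom 8140. The 18 members classed as promoters belong to a class with few calls in general, 0.851% of all promoters, against 6.59% of all other regions. The other members were 4 over exons, 16 in genes outside exons and 10 between genes, classes with 5.11%, 6.26% and 7% called. The median log2 fold change (P0 over E14.5) was 0.06 over the 48 regions and 0.01 over all regions, with 25 of the 48 above 0. Bmpr1b weighs on this with 13 regions, and over the 35 regions of the other 9 genes the median was -0.03, with 14 above 0.

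The data also bound how large a change could have been missed. In 43 of the 48 regions the 95% interval of the log2 fold change lay between -1 and 1, a 2-fold difference either way, as it did in 72.1% of all regions. All 3 libraries of P0 lay above all 3 of E14.5 in 9 regions and below them in 2, where 11.8% and 12.4% of all regions did so, 24.2% together. Of those 9 regions 7 were at receptor genes and 5 of these at Bmpr1b. In simulated counts over 43523 regions, with 200 changed 2-fold and the same dispersion for all, the fit recovered 32.5% of those changed. The data gave 2059 calls, so the adjusted threshold fell at a higher unadjusted p there. The recovery that applied to the members is therefore not known. A missed call is not a sign that a region did not change.

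**Figure D1:**
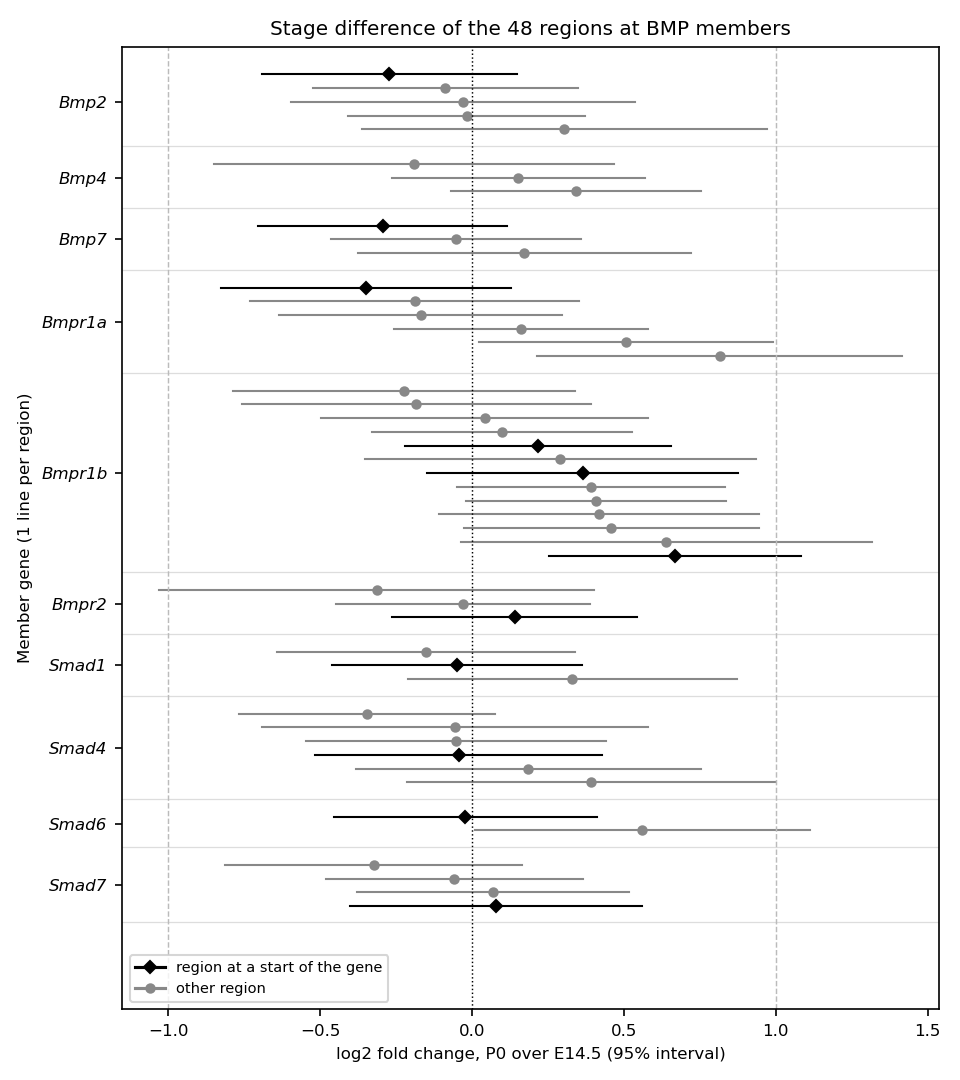
Log2 fold change (P0 over E14.5) with its 95% interval on the x axis, 1 line for each of the 48 regions, grouped by gene on the y axis. Black diamonds are regions at a start of the gene, grey circles are other regions, and dashed lines mark a 2-fold difference. In 43 regions the interval stays between the dashed lines, and 11 of the 13 Bmpr1b regions lie to the right of 0.

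Of the 10 genes, 9 had a region over a known start, and Bmpr1b had 3 such regions. Scaled by length and with both stages pooled, the start region of Bmp2 was the most open with 20.9 ± 3.16 CPM per kb (SD over 6 libraries). Next came the distal start of Bmpr1b (18.3 ± 3.20), Smad7 (18.02 ± 3.70) and Smad6 (16.2 ± 2.28). Smad4 (13.4 ± 2.57), Bmpr1a (13.1 ± 2.96), the proximal (12.2 ± 3.24) and middle (11.4 ± 2.58) starts of Bmpr1b, Smad1 (11.2 ± 1.25), Bmpr2 (10.5 ± 1.15) and Bmp7 (10.5 ± 1.67) followed on the same scale. The ranges over the 6 libraries, with both stages pooled, overlapped for all 10 neighbouring pairs in this order. Both regions of a pair were measured in the same libraries, and the steps within each library were not tested. Among all promoter regions these levels were ordinary, from the 36.3 percentile (Bmp7) to the 74.1 percentile (Bmp2). Taken by stage, the mean at Bmp2 was 22.9 CPM per kb at E14.5 and 18.9 at P0. The distal Bmpr1b start had 17.0 and 19.6, so that it and not Bmp2 was the most open at P0. The proximal Bmpr1b start had 9.43 and 15.0, and the order by stage was not tested.

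**Figure D2:**
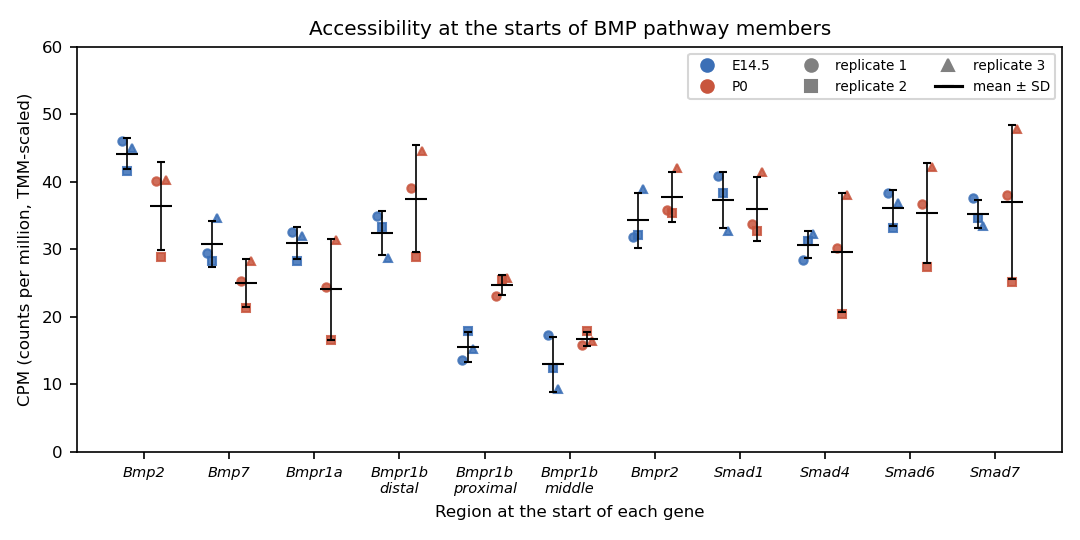
CPM (y axis) in each library at the 11 regions over a start of a member gene (x axis). Blue is E14.5 and red is P0, the marker shape gives the replicate, and black bars are the mean ± SD of 3 libraries. The stages separate at Bmp2, where P0 is lower, and at the proximal start of Bmpr1b, where P0 is higher, and P0 replicate 2 is the lowest library at 7 of the 11 regions.

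The ligand loci had 11 regions, with log2 fold changes from -0.29 to 0.34. The start region of Bmp7, the ligand of the progenitors themselves, lay on chromosome 2 from 172938370 to 172941034 and held 29.4, 28.3 and 34.7 CPM in E14.5 replicates 1, 2 and 3 and 25.3, 21.3 and 28.3 CPM in P0 replicates 1, 2 and 3. The lowest E14.5 library and the highest P0 library were level, and the log2 fold change was -0.29 (SE 0.19, 95% interval -0.71 to 0.12, adjusted p = 0.452). Within the gene, a region outside the exons (172888277 to 172890871) held from 19.5 to 20.5 CPM at E14.5 and from 16.2 to 20.9 at P0, a log2 fold change of -0.05 (SE 0.19). The third, downstream of the gene from 172824675 to 172826037, had the lowest p of the others, with 8.90, 6.83 and 10.98 CPM at E14.5, 9.47, 11.05 and 9.55 at P0 (log2 fold change 0.17, SE 0.26, adjusted p = 0.783). Summed over its 3 regions Bmp7 held 59.7 ± 4.93 CPM in E14.5 and 54.2 ± 5.19 in P0 libraries (mean ± SD, n = 3 each), and the stages overlapped.

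At Bmp2 the start region (chromosome 2, 133551919 to 133553848) held 46.0, 41.6 and 45.0 CPM in the E14.5 libraries and 40.2, 28.9 and 40.3 in those of P0. All P0 libraries were below all E14.5 libraries, by a small margin in replicates 1 and 3, and the log2 fold change of -0.27 (SE 0.20, 95% interval -0.69 to 0.15, adjusted p = 0.502) was within the error of the fit. Directly downstream, a region over an exon (133553913 to 133555270) was level, with 24.3, 22.8 and 23.9 CPM at E14.5 and 24.1, 21.0 and 24.9 at P0. The region from 133596531 to 133597134, 44.7 kb from the start, was a weak one with 3.91, 4.73 and 6.19 CPM at E14.5 and 6.77, 6.66 and 4.97 at P0 (log2 fold change 0.30, SE 0.31, adjusted p = 0.665). Summed over 5 regions Bmp2 held 109 ± 6.75 CPM in E14.5 and 101 ± 5.49 in P0 libraries (mean ± SD, n = 3 each). The highest P0 sum, 104.43, and the lowest E14.5 sum, 104.51, were level within the spread.

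Bmp4 was the one member with no region over its start. The strongest of its 3 regions lay inside the gene, on chromosome 14 from 46385495 to 46388311, where the table lists the promoter of the overlapping gene Gm15222, so that a signal of either gene cannot be told apart. It held 29.2, 33.9 and 34.8 CPM at E14.5 and 35.9, 30.3 and 42.3 at P0, with overlapping stages (log2 fold change 0.15, SE 0.20, adjusted p = 0.740). The region from 46436122 to 46437966, classed as a promoter under another identifier, held 15.8, 18.7 and 16.5 CPM at E14.5 and 19.3, 22.2 and 23.2 at P0. All P0 libraries were above all E14.5 libraries there (log2 fold change 0.34, SE 0.19, adjusted p = 0.370).

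Bmpr1b encodes a type I receptor. The gene spans 332 kb of chromosome 3 (141837135 to 142169585, minus strand) and had 13 regions, 9 of them in its body. The log2 fold change was above 0 in 11 of the 13, and in 9 of 9 within the body, with a median of 0.36 over the 13, beside 0.06 over all members and 51.1% of all regions above 0. The median was 0.23 without E14.5 replicate 3. Of the 13 regions 3 were promoters, and the classes differ: 4797 of 14097 promoters (median -0.10) and 17437 of 29426 other regions (median 0.10) had a log2 fold change above 0. Summed over the 13 regions the locus held 170, 180 and 154 CPM in the E14.5 libraries and 208, 199.9 and 210 in the P0 libraries. All P0 sums were above all E14.5 sums, with means of 168 ± 13.3 and 206 ± 5.51 CPM (SD, n = 3 each), a ratio of 1.23. The regions share libraries and a locus and are not independent, the locus was singled out after its values were seen, and no region of it passed the threshold, so this is given as a description.

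The region over the proximal Bmpr1b start had the lowest p of all 48 (chromosome 3, 141930687 to 141932332, 238 kb downstream of the distal start). It held 13.5, 17.9 and 15.2 CPM in E14.5 replicates 1, 2 and 3 and 23.0, 25.4 and 25.8 CPM in P0 replicates 1, 2 and 3. The stages did not overlap, the means were 15.5 ± 2.19 and 24.7 ± 1.52 CPM (SD, n = 3 each), and the log2 fold change was 0.67 (SE 0.20, 95% interval 0.25 to 1.08). Its adjusted p of 0.0655 in edgeR missed the threshold, and without E14.5 replicate 2 it was 0.0421, with a range from 0.0421 to 0.247 over all alternatives. P0 replicate 2, the lowest library at most starts, was not low at this one.

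The distal start of Bmpr1b, which is the 5′ end of the gene, was its most open region (142168318 to 142170225). There the libraries held 35.0, 33.4 and 28.7 CPM at E14.5 and 39.0, 28.9 and 44.5 at P0, and the stages overlapped (log2 fold change 0.22, SE 0.21, 95% interval -0.22 to 0.65, adjusted p = 0.628). At the middle start (141981127 to 141982429) the values were 17.3, 12.3 and 9.23 CPM at E14.5 and 15.8, 17.9 and 16.4 at P0, with the stages overlapping (log2 fold change 0.36, SE 0.24, adjusted p = 0.459). The difference between the proximal start and the others was not tested. Outside the starts, a region 54.9 kb downstream of the distal start (142113853 to 142115462) held 18.9, 23.6 and 14.597 CPM at E14.5 and 25.1, 25.4 and 24.7 at P0. The P0 libraries were nearly level and all above E14.5 there (log2 fold change 0.39, SE 0.21, adjusted p = 0.336). A weaker region 150 kb downstream (142019633 to 142020280) held 3.32, 6.13 and 3.97 CPM at E14.5 and 6.56, 6.51 and 7.97 at P0, also without overlap (log2 fold change 0.64, SE 0.32, adjusted p = 0.301). In the remaining regions of the body the stages overlapped, with log2 fold changes of 0.04, 0.10, 0.29 and 0.46 (SE 0.25, 0.20, 0.30 and 0.23). The regions with a lower mean at P0 were the outermost on each side: the one farthest upstream of the gene (log2 fold change -0.18, SE 0.27) and one within the neighbouring gene Unc5c (log2 fold change -0.22, SE 0.26).

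**Figure D3:**
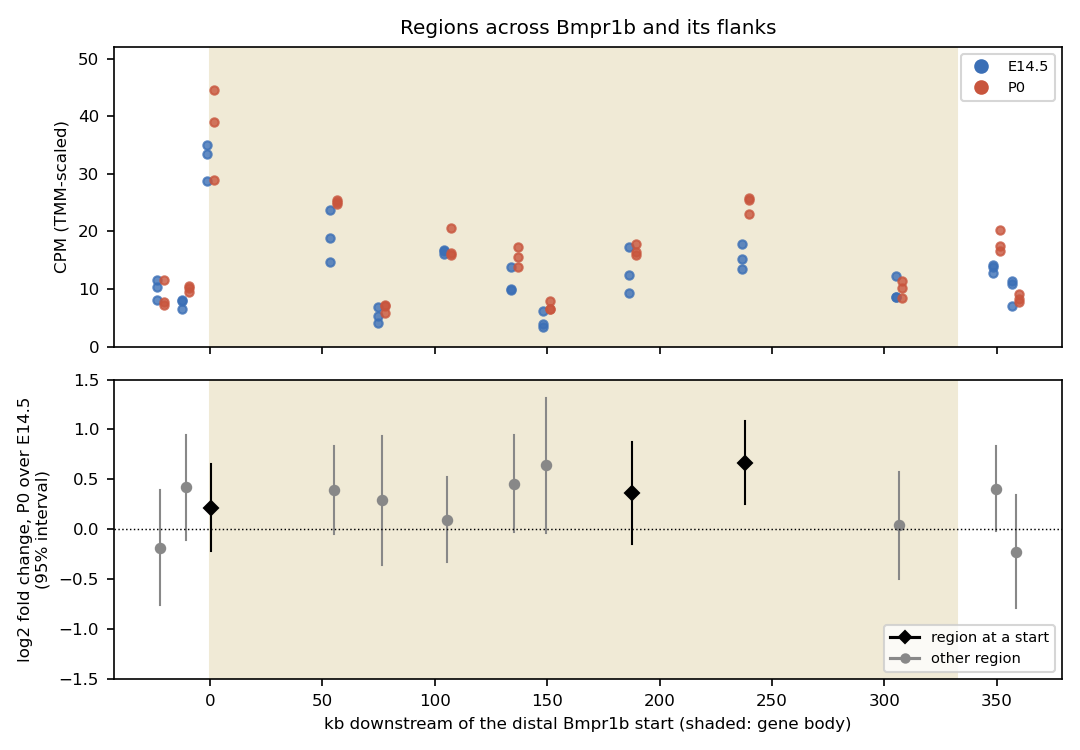
The 13 regions of the Bmpr1b locus by distance downstream of the distal start in kb (x axis), with the gene body shaded. The upper panel gives CPM in each of the 6 libraries, blue for E14.5 and red for P0, and the lower panel the log2 fold change (P0 over E14.5) with its 95% interval, black at starts. All 9 regions in the body have a fold change above 0, and the interval leaves out 0 at the proximal start, 238 kb downstream.

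Bmpr1a is the other type I receptor, and its start region lay on chromosome 14 from 34501493 to 34503592. Values were 32.6, 28.3 and 32.0 CPM at E14.5 and 24.4, 16.5 and 31.4 at P0, with P0 replicate 3 inside the embryonic range and the other P0 libraries below it. The log2 fold change was -0.35 (SE 0.22, 95% interval -0.83 to 0.13, adjusted p = 0.443), and it was -0.60 without P0 replicate 3 and -0.15 without P0 replicate 2. The table lists this region under the overlapping gene Gm17110. A 575 bp region 43.4 kb upstream, within the neighbouring gene Ldb3 and outside its exons (34545660 to 34546234), had the largest fold change of the 48. It held 7.24, 7.79 and 6.31 CPM at E14.5 and 16.7, 8.02 and 12.7 at P0, where replicate 2 barely cleared the embryonic libraries. The log2 fold change was 0.82 (SE 0.28, 95% interval 0.22 to 1.42, adjusted p = 0.119), and it moved with single P0 libraries: without replicate 1 it was 0.54 (adjusted p = 0.549) and without replicate 2 it was 1.04 (adjusted p = 0.0419). Over 14 alternatives 1 passed the threshold. The authors' deposited table classed this region as opening, with a log2 fold change of 0.92 and an adjusted p of 0.0924, and classed 0 of the 48 as closing, where it classed 2.86% and 2.48% of all regions as opening and closing. A region within Mmrn2, on the other side of Bmpr1a (34377764 to 34379354), held 17.2, 10.7 and 15.9 CPM at E14.5 and 24.3, 18.8 and 18.9 at P0 (log2 fold change 0.51, SE 0.23, adjusted p = 0.241). It lay 124 kb from the Bmpr1a start, and all P0 libraries were above all E14.5 libraries.

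Bmpr2, the type II receptor, had the narrowest interval of the 5 receptor start regions (chromosome 1, 59762101 to 59765520). The libraries held 31.8, 32.1 and 39.0 CPM at E14.5 and 35.8, 35.4 and 42.0 at P0, and the highest E14.5 library was above 2 of the P0 libraries. The log2 fold change was 0.14 (SE 0.19, 95% interval -0.26 to 0.54, adjusted p = 0.756). Its region within the gene outside the exons (59833651 to 59834080) was the shortest of the 48 at 430 bp, with 4.98, 3.503 and 5.25 CPM at E14.5 and 3.54, 3.93 and 3.55 at P0 (log2 fold change -0.31, SE 0.34, adjusted p = 0.680). The interval there reached -1.03, so that even a fall by a factor of 2 was within the error.

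The Smad effectors had 9 regions with log2 fold changes from -0.35 to 0.39. The start of Smad1, the receptor-activated Smad, on chromosome 8 from 79396609 to 79399876, held 40.8, 38.4 and 32.7 CPM at E14.5 and 33.7, 32.7 and 41.4 at P0. The stages covered the same range, and the log2 fold change was -0.05 (SE 0.19, 95% interval -0.46 to 0.36, adjusted p = 0.929), with the sign turned to 0.01 under total-count scaling. A region within the gene outside the exons (79384267 to 79385652) held 12.9, 9.90 and 6.89 CPM at E14.5 and 12.6, 12.1 and 12.6 at P0, where the P0 libraries were level and E14.5 was spread (log2 fold change 0.33, SE 0.25, adjusted p = 0.536). The start of Smad4, the shared partner, also overlapped between the stages (chromosome 18, 73702521 to 73704759), with 28.5, 31.2 and 32.3 CPM at E14.5 and 30.2, 20.4 and 38.0 at P0. Its log2 fold change was -0.04 (SE 0.22, 95% interval -0.52 to 0.43, adjusted p = 0.945), and 0.01 under total-count scaling. Downstream of Smad4, a region classed as a promoter under another identifier (73622614 to 73624809) was nearly constant at E14.5, with 25.5, 25.7 and 25.5 CPM, and lower in every P0 library, with 20.7, 15.7 and 23.5 (log2 fold change -0.35, SE 0.20, adjusted p = 0.379).

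The inhibitory Smads are classical targets of the pathway they inhibit, and the stages overlapped at both starts. Smad6, on chromosome 9 from 64021211 to 64023414, held 38.3, 33.1 and 36.9 CPM at E14.5 and 36.6, 27.4 and 42.2 at P0 (log2 fold change -0.02, SE 0.20, 95% interval -0.45 to 0.41, adjusted p = 0.971), and 0.04 under total-count scaling. Smad7, on chromosome 18 from 75366244 to 75368249, held 37.6, 34.7 and 33.5 CPM at E14.5 and 38.1, 25.1 and 47.9 at P0 (log2 fold change 0.08, SE 0.23, 95% interval -0.40 to 0.56, adjusted p = 0.897). At both genes P0 replicates 2 and 3 stood below and above all embryonic libraries. The other region of Smad6, over the start of the neighbouring gene 1110036E04Rik (64049472 to 64050559), held 7.24, 7.53 and 6.19 CPM at E14.5 and 12.4, 8.63 and 9.87 at P0. There the stages did not overlap, with a fold change of 0.56 on the log2 scale (SE 0.26, 95% interval 0.01 to 1.11, adjusted p = 0.258). Downstream of Smad7 a region from 75404745 to 75406359 held 16.0, 11.3 and 15.5 CPM at E14.5 and 12.9, 10.6 and 10.6 at P0 (log2 fold change -0.32, SE 0.23, adjusted p = 0.493).

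Summed over all regions of a gene, the remaining members overlapped between the stages. Mean CPM at E14.5 and P0 (± SD, n = 3 each) was 55.0 ± 4.74 and 62.4 ± 7.45 at Bmp4, 135 ± 14.4 and 134 ± 23.0 at Bmpr1a, and 77.5 ± 3.22 and 79.1 ± 7.47 at Bmpr2. It was 94.7 ± 8.22 and 90.9 ± 19.0 at Smad1 and 103 ± 7.53 and 99.5 ± 6.96 at Smad4. For the inhibitors it was 43.1 ± 2.46 and 45.7 ± 8.51 at Smad6 and 93.6 ± 4.498 and 92.6 ± 17.5 at Smad7. The ratio of P0 to E14.5 ran from 0.908 at Bmp7 to 1.23 at Bmpr1b over the 10 genes, with 1.14 at Bmp4 and 0.996 at Bmpr1a. With a library left out the sign of the difference turned at Bmpr1a, Bmpr2 and the 4 Smads, and its size at Bmp2, Bmp4 and Bmp7 moved by over 1.5 times.

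Matches to motifs of Smad proteins, as listed in the deposited table, were found in 9 of the 48 regions (18.8%), against 9.02% of all regions. The count pools the motifs named Smad1, Smad2, Smad3 and Smad4. Matches at both Bmp7 regions, within Smad7 and over the Ldb3 exon were to Smad2 or Smad3 and not to Smad1. Regions with such a match were longer, with a median of 2202 bp among members and 1840 bp among all regions with one, beside 1599 bp over all regions. A region of Smad4 outside its exons (73689291 to 73694092), at 4802 bp the longest of the 48, had 8 of the matches, to the motifs named Smad1, Smad2 and Smad4. It held 24.7, 14.63 and 24.3 CPM at E14.5 and 18.01, 24.4 and 18.9 at P0, where the stages overlapped (log2 fold change -0.05, SE 0.23). Other matches lay within Bmp7, Bmpr1b and Smad7 outside their exons, over the Bmp7 start, upstream of Smad7, in the regions within Mmrn2 and over the start of 1110036E04Rik, and in another Ldb3 region, over an exon (34540165 to 34542140, log2 fold change -0.19, SE 0.25). The Ldb3 region with the largest fold change had no listed motif. Overlap with an entry of the table's FANTOM enhancer column was listed for 12 of the 48 regions (25.0%) and for 9.65% of all regions. The start regions of Bmpr2, Smad1 and Smad6 were among the 12, so the share is not one of distal enhancers. The column is named for an older mouse genome build than that of the regions, and how its entries were carried over was not assessed.

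The rest of the pathway was taken from a list of 70 further symbols, of which 69 matched a gene, with 237 regions that were not already counted. Of these 237 regions 5 passed the threshold, 1 higher and 4 lower at P0, against 1.79% and 2.94% of all regions in each direction. The median log2 fold change of the 237 was -0.04, beside 0.01 over all regions. The lower regions were at the ligand gene Bmp5 and at Tll1, a protease of the Bmp1 family that cleaves BMP antagonists, and the higher one was near Msx1, a homeobox gene and BMP target. The authors classed the Bmp5 region inside the gene and the Tll1 region outside it as closing (their adjusted p = 0.0496 and 0.0481). They classed the Msx1 region as opening (0.0552). The Bmp5 region in the flank and the Tll1 region inside the gene they classed as stable (0.123 and 0.196). Other receptors and coreceptors (34 regions), other Smads (10) and intracellular regulators (50) had no region past the threshold in edgeR, with 1, 1 and 8 regions at an unadjusted p under 0.05, beside 18.7% of all regions. At that level there were 3 of 38 regions of other ligands, 9 of 64 of extracellular regulators and 3 of 41 of target genes. Of the receptors, Smads and intracellular regulators DESeq2 called 0, 0 and 1 and limma-voom none.

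Inside the Bmp5 gene, between its exons, the region on chromosome 9 from 75833283 to 75833916 held 17.3, 15.0 and 21.6 CPM at E14.5 and 6.66, 7.72 and 6.39 at P0. The stages were well apart, and the log2 fold change was -1.38 (SE 0.24, adjusted p = 0.00470). A second region, in the flank of the gene (75926686 to 75928694), fell from 18.5, 22.2 and 30.9 CPM to 12.2, 10.3 and 13.7 (log2 fold change -0.98, SE 0.23, adjusted p = 0.0243). Without E14.5 replicate 3, which lowered the calls over all regions from 2059 to 339, the adjusted p-values were 0.0512 and 0.185. The first kept a log2 fold change from -1.51 to -1.23 with any library left out and passed in 13 of 14 alternatives. The second ran from -1.13 to -0.75, passed in 11 of 14, and was also lost without P0 replicate 1 (0.116) and without P0 replicate 2 (0.0651).

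A region 10.4 kb from the start of Tll1, on chromosome 8 from 64214832 to 64218017, held 24.0, 29.8 and 33.3 CPM at E14.5 and 11.7, 15.0 and 12.1 at P0. The stages were well apart (log2 fold change -1.18, SE 0.21, adjusted p = 0.00573), although without E14.5 replicate 3 the adjusted p was 0.0554 and without P0 replicate 1 it was 0.0504. Inside Tll1, the region from 64057193 to 64058441 fell from 18.03, 31.0 and 26.2 CPM to 13.5, 13.0 and 15.1 (log2 fold change -0.85, SE 0.22, adjusted p = 0.0408). This call did not hold with total-count scaling (0.0675), limma-voom (0.0614) or when E14.5 replicate 2 (0.0932), E14.5 replicate 3 (0.180), P0 replicate 1 (0.176) or P0 replicate 2 (0.0878) was left out.

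The region near Msx1 lay between genes on chromosome 5 (37857555 to 37858821), 33.6 kb from the Msx1 start. It held 2.85, 5.61 and 6.31 CPM at E14.5 and 12.3, 11.7 and 10.6 at P0, a rise with no overlap of the stages (log2 fold change 1.22, SE 0.30, adjusted p = 0.0328). Without E14.5 replicate 1, E14.5 replicate 3, P0 replicate 1 or P0 replicate 2 the adjusted p was 0.113, 0.0823, 0.161 and 0.0600. The other region of Msx1 had a log2 fold change of 0.21, and the Id genes, the best known targets of BMP signalling, had no call over the 6, 3, 4 and 2 regions of Id1, Id2, Id3 and Id4, where 4.73% of all regions were called. Among extracellular antagonists, the 2 regions of Nog (noggin) and the 2 of Grem1 (gremlin) had no call either, which at that share is near the background, with median log2 fold changes of -0.43 and 0.01.

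**Figure D4:**
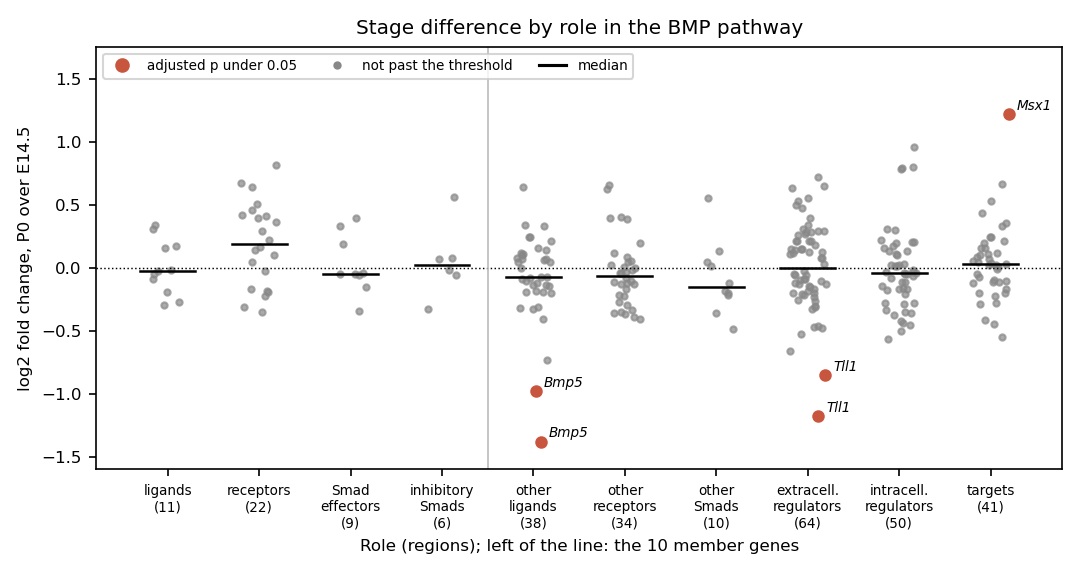
Log2 fold change (P0 over E14.5, y axis) of each region by the role of its gene (x axis, number of regions in brackets), with the 10 members to the left of the line and the other pathway genes to the right. Red points passed an adjusted p of 0.05 and black bars are medians. The 5 red points are at Bmp5, Tll1 and Msx1, and none is among the members.

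The member nearest to the limit, 47.6 kb downstream of Bmpr1a, had a log2 fold change of 0.16 (SE 0.20). The nearest region outside, 50.4 kb upstream of Smad4, had one of -0.13 (SE 0.30). With gene bodies alone 23 of the 48 regions stayed, and with 10 kb on either side 29, the rest lying farther out.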

How the data were processed

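Chromatin accessibility was measured in 3 libraries of E14.5 and 3 of P0 nephron progenitors, grouped by the source names of the samples. The table the authors deposited holds read counts of each library over each region, raw and unscaled, per the file headers and values. It also gave the authors' own log2 fold change and adjusted p-value, made with a model that the headers do not describe. Values from that model are quoted here for the Ldb3 region and the called pathway regions. The genome build was mm10, per the submitters' processing notes. The aligner, peak caller, counting rule, shift for the Tn5 site and treatment of duplicates are not given in the sources used here, and their effect on the counts was not assessed.

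Of 45489 rows, 1966 repeated a region and each of 43523 distinct regions was used once. Regions were fitted together in edgeR 4.0.16 (R 4.3.3) on the deposited counts, with TMM scaling, filterByExpr (which removed 0 regions), a quasi-likelihood F test of stage alone, and Benjamini-Hochberg adjustment over all regions. The standard error was the size of the log2 fold change divided by the square root of F, and its 95% interval used the t distribution with the fit's total degrees of freedom. On simulated counts for this comparison over 43523 regions, 65 of 200 regions changed 2-fold were called, with 2 false calls. Gene spans came from RefSeq (GRCm38.p6), whose coordinates match mm10. A gene's start was taken from the RefSeq promoter table or, where a region listed as its promoter covered an end of its span, from that end.

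Regions named were those past the threshold, the start region with the most counts and the other region with the lowest p of each member, and up to 8 called pathway regions. The further Bmpr1b regions, the Smad4 region with 8 Smad matches, the strongest Bmp4 region and the regions beside named ones were chosen after their values were seen. The members and lists were chosen with earlier results of these data known. Alternatives were DESeq2 1.42.0 (size factors and Wald test), total-count scaling, limma-voom (limma 3.58.1), a mean CPM of at least 5, no filter, other thresholds and windows, all rows, the replicate number as a block, and each library left out. 0 columns of sample values were left unmatched.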

Additional observations from a re-analysis of the deposited data

How the results depend on the processing

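No setting with all 6 libraries called a member region at an adjusted p under 0.05. With each library left out in turn, from 0 to 1 member regions were higher at P0 and 0 lower: the proximal Bmpr1b start without E14.5 replicate 2, and the region within Ldb3 without P0 replicate 2. At a threshold of 0.1 there was 1 (Bmpr1b), and 3490 of all regions passed, against 539 at 0.01. Leaving out regions within another gene, chosen after seeing the data, kept 37 regions with 0 calls and a median log2 fold change of 0.07. Over all regions the count ran from 339 (without E14.5 replicate 3) to 2987 (without E14.5 replicate 2), with 474 without P0 replicate 1 and 1099 without E14.5 replicate 1, and the cause was not tested. The median log2 fold change of the members, 0.06, ran from -0.07 to 0.12 over the fits with a library left out and was -0.02 within gene bodies. From 10 to 11 of the 13 Bmpr1b regions were above 0 in each fit.

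Pathway regions higher at P0, 1 with all libraries, numbered 2 with the DESeq2 Wald test, 3 at a threshold of 0.1, 0 at 0.01, 0 with gene bodies alone, 0 with 10 kb, and from 0 to 3 with a library left out. Those lower at P0, 4 with all libraries, numbered 2 at 0.01, 2 with gene bodies alone, 2 with 10 kb, and from 0 to 5 with a library left out. The narrower windows hold fewer regions, and for the other settings the cause was not tested. The replicate block left 0 higher (the Msx1 region had an adjusted p of 0.0531) and 3 lower (the inner Tll1 region had 0.0562), with 1834 calls over all regions, and called 0 members. Same-numbered libraries are different litters, and their deviations correlated at 0.0666, -0.140 and 0.0767, so the numbers were not treated as pairs.

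Signs of start regions near 0 turned without passing a threshold. Under total-count scaling the log2 fold changes of Smad1, Smad4 and Smad6 were 0.00825, 0.0131 and 0.0388, where this scaling moved the median of all regions from 0.01 to 0.07. With a library left out they ran from -0.18 to 0.0187 at Smad1, -0.28 to 0.16 at Smad4, -0.18 to 0.13 at Smad6 and -0.17 to 0.29 at Smad7, and from -0.0040 to 0.35 at the region downstream of Bmp7, and the cause was not tested. Starts that kept their sign also moved by over 1.5 times: Bmp2 ran from -0.36 to -0.14, Bmpr1a from -0.60 to -0.15, Bmpr2 from 0.04 to 0.24 and the distal Bmpr1b start from 0.06 to 0.37. Among the other named member regions with a library left out, those of Smad1 (0.13 to 0.56), Smad4 (-0.50 to -0.21), Bmpr2 (-0.49 to -0.20) and Bmp2 (0.17 to 0.49) moved as much. With a library left out, the P0 minus E14.5 difference in summed CPM ran from -11.1 to -4.86 at Bmp2, -7.79 to -2.68 at Bmp7, 3.17 to 10.1 at Bmp4 and 30.9 to 44.1 at Bmpr1b. Its sign turned at Bmpr1a (-10.7 to 11.9), Bmpr2 (-2.61 to 4.32), Smad1 (-14.5 to 3.50), Smad4 (-8.00 to 0.0117), Smad6 (-0.565 to 7.44) and Smad7 (-9.84 to 7.62). The members' standard errors ran from 0.18 to 0.34, with a median of 0.23.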
